A study of Mus musculus with 2 samples.

Results

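The regions described here, called sites, come from GATA3 chromatin immunoprecipitation in mouse CD4+ T cells. Their read count, scaled to library size, was at least 3 times higher with TGF-β and IL-4 than in a second library of the same series. No control library or peak list was used, so the sites are not called peaks. They were found by dividing chromosomes 1 to 19 into bins of 200 bp and counting reads by fragment centre. A bin was kept when it held at least 20 reads in the TGF-β + IL-4 library and its RPM (reads per 1000000 reads of the library) was at least 3 times that of the second library. At least 70% of its reads had to have the top mapping quality, 42, and 20% to 80% of them had to lie on the plus strand. For the ratio, an empty bin of the second library was counted as 1 read. Of 32530 bins with at least 20 reads, 30405 passed the quality and strand rules. A ratio of at least 3 was reached by 3333 of these, which is 11.0%, and adjacent bins were merged to 3033 sites out of 21383 regions in all. These counts come from the contrast that chose the sites, so nothing is read from them.

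The series holds 2 GATA3 chromatin immunoprecipitation libraries, 1 per condition, from C57BL/6 CD4+ T cells that were CD25-negative and CD62L-positive when isolated. One library is labelled TGF-β + IL-4. Its protocol lists TGF-β1 at 2 ng/ml and IL-4 at 10 ng/ml, on plates coated with anti-CD3 and with soluble anti-CD28, each at 1 µg/ml. The other carries no treatment name and is called here the second library. Its protocol text is the same and allows for TGF-β1 without IL-4, and the labels do not settle whether its cells had TGF-β1 alone or were unstimulated. In the second case each ratio would cover activation as well as the cytokines. The libraries had 15561681 and 22963959 reads on the autosomes, X and Y. Since each condition has 1 library, differences between them could not be checked against replicates and carry no p-value. The intervals printed are 95% intervals of counting error only, and reads amplified by PCR without molecular identifiers are not independent molecules.

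GATA3 is a zinc-finger factor that binds DNA at GATA sequences, is needed for T cell development and drives the T helper 2 programme downstream of IL-4 and STAT6. TGF-β given together with IL-4 turns naive CD4+ T cells into IL-9-producing cells, in which GATA3 also has a role. Id3, named in the title of the series, is a helix-loop-helix protein that blocks DNA binding by E proteins. Chromatin immunoprecipitation cannot tell a site that is bound in more cells from one bound more tightly in each cell, nor a change in GATA3 amount from a change in its distribution. Sites are given by mm9 position.

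Most of the sites were of modest strength and few lacked reads in the second library. In the TGF-β + IL-4 library a site held between 20 and 217 reads, with a median of 27, or 1.74 RPM. In the second library it held between 0 and 83, with a median of 10, or 0.44 RPM, and 1 site of 3033 held 0. With that site counted as 1 read in the second library, ratios ran up to 57.6 around a median of 3.86. The ratio was under 4 at 1666 sites (54.9%), while 975 lay between 4 and 6, 307 between 6 and 10, and 85 (2.8%) at 10 or more. Single bins made up 2757 sites, 254 were 2 bins long and 22 were 3 or 4 bins long.

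**Figure D1:**
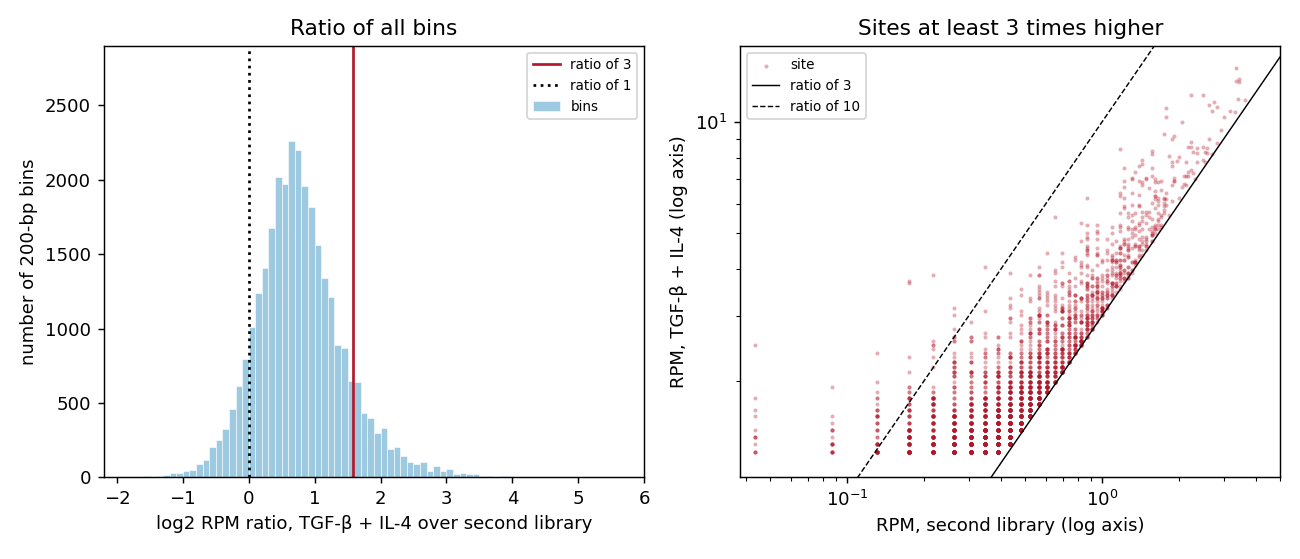
Left: number of 200-bp bins (of 30405) by log2 RPM ratio of the TGF-β + IL-4 library over the second library, with lines at ratios of 1 and 3. Right: RPM of each site in both libraries on log axes (the site with 0 reads is left out), with lines at ratios of 3 and 10. The bins form 1 hump with its median at a ratio of 1.65, and the sites are its upper tail.

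The ratio of 3 marks no gap in the data. Among bins of at least 40 reads, the members nearest to it were on chr4:135411601-135411800, with 61 reads against 30, on chr2:11556801-11557000 and on chr9:83055401-83055600, both with 59 reads against 29. Just outside lay bins on chr15:85220401-85220600, with 124 against 61, on chr1:33940201-33940400, with 126 against 62, and on chr3:95031801-95032000, with 63 against 31. There were 298 sites with a ratio of 3 to 3.1 and 400 bins at 2.9 to 3. Where the bins begin mattered too. Starting them 100 bp later gave 3066 sites, which overlapped 52.4% of the 3033. The median ratio of all 30405 bins was 1.65, or 0.72 on the log2 scale, and 27368 had a ratio over 1. Those bins were kept for at least 20 reads in the TGF-β + IL-4 library alone, which by itself raises their ratio. Whether a difference between the libraries as a whole also had a part in this median was not tested.

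Reads that had no part in the choice gave a smaller difference, in the same direction. The reads of each library were parted by whether their 5′ end lay at an even or an odd position. Even-position reads alone, with a minimum of 10 reads in place of 20, chose 5261 regions from 5638 bins, 16.9% of the bins that qualified. In those reads the regions held 87042 reads against 29358, a pooled RPM ratio of 4.38 (4.32 to 4.43). In the odd-position reads the same regions held 66887 against 41147, a ratio of 2.40 (2.37 to 2.43). Odd-position reads over all 24004 regions of at least 10 even-position reads gave 1.5 (1.499 to 1.51). The held-out ratio was above that of these 24004 regions and below the 3 that the rule asks for. Those regions include the chosen ones and were kept for reads in the TGF-β + IL-4 library alone. They are thus not GATA3 regions in general. Regions at a ratio of 0.8 to its reciprocal in even-position reads had 1.16 in the odd-position reads. Held-out ratios over 1 were therefore not limited to the chosen regions. A library-wide difference, such as in how well the immunoprecipitation worked, was not tested, as each condition has 1 library. The ratio of a site may hold a part that other regions share.

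Region by region, the held-out reads were on the same side of 1 in most cases, but only a minority kept the 3-fold size. Of the 5261 regions, 4716 (89.6%, Wilson interval 88.8% to 90.4%) had a ratio over 1 in the odd-position reads, against 80.4% of all regions. A ratio of at least 3 was seen again in 1742 (33.1%, 31.9% to 34.4%), against 10.4% of all regions. Regions that had a ratio of 0.8 to its reciprocal in even-position reads reached 3 in 1.55% of cases, and those at 1.5 to 2.5 in 7.89%. Of the 3033 sites, 2039 (67.2%) overlapped a region chosen by the even-position reads, and 2036 (38.7%) of those 5261 regions overlapped a site. Both sets were chosen with the even-position reads, so this overlap is not a held-out check of the sites.

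With more reads, more of the difference was seen again. Regions of 10 to 14 even-position reads, 3282 in number, had a ratio of 4.74 in the reads that chose them and 2.09 (2.05 to 2.14) in the others. With 15 to 29 reads, in 1547 regions, the values were 4.22 and 2.44 (2.39 to 2.49). In the 432 regions of at least 30 reads they were 4.0 and 2.97 (2.89 to 3.04), and 431 of these 432 had a held-out ratio over 1. A higher choosing ratio went with a higher held-out ratio, which stayed much the smaller. Regions chosen at under 4 had a held-out ratio of 2.21 (2.17 to 2.25), those at 4 to 6 had 2.5 (2.45 to 2.56), those at 6 to 10 had 2.71 (2.61 to 2.81) and those at 10 or more had 3.16 (2.98 to 3.36), where the choosing reads gave 17.5.

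**Figure D2:**
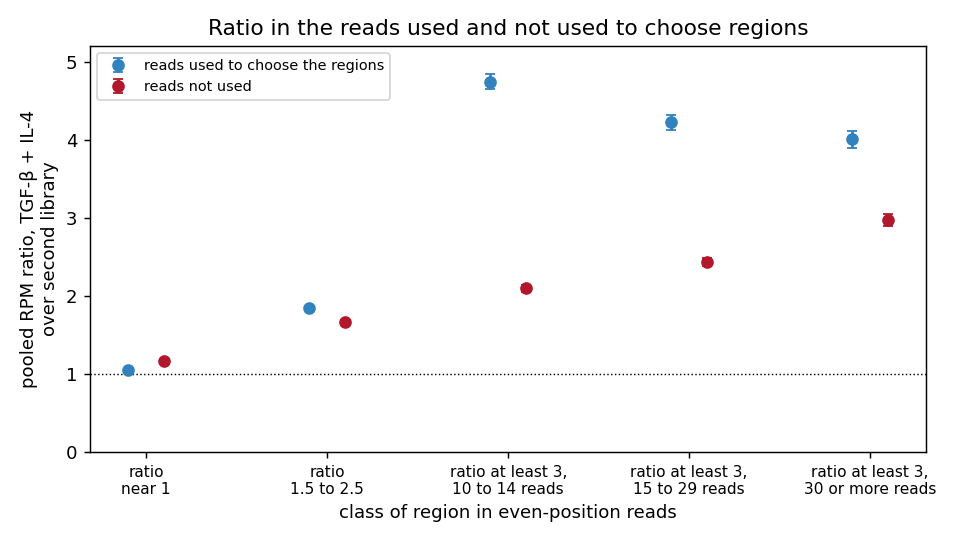
Pooled RPM ratio of the TGF-β + IL-4 library over the other in regions chosen by even-position reads, in those reads and in the odd-position reads, for regions near 1 (0.8 to its reciprocal), at 1.5 to 2.5 and, by read number, at 3 or more. Points are ratios and bars 95% counting intervals. The held-out ratio is highest, at 2.97, in regions of 30 or more reads, where it is nearest to the choosing ratio of 4.0.

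The sites also stood over their surroundings in the second library. Enrichment was taken as reads per base in the site over reads per base 1 to 5 kb away on both sides in the same library, and with no control library used here it speaks of the surroundings only. Pooled over the 3033 sites it was 10.5 (10.4 to 10.5) with TGF-β + IL-4 and 3.35 (3.32 to 3.38) in the second library. The rule pulls the second value down, since it keeps bins with few reads there. In the odd-position reads of regions chosen by even-position reads, it was 3.88 (3.84 to 3.92) in the second library and 7.59 (7.53 to 7.65) with TGF-β + IL-4. Regions at a ratio of 0.8 to its reciprocal had 10.7 and 11.4 in the same reads. A signal over the surroundings was therefore present in both libraries over the pooled sites, and it was smaller in the second library.

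Single sites differed in this. With TGF-β + IL-4, 2675 sites (88.2%) were enriched at least 5 times, and the lowest value was 0.92, so not every site stood over its surroundings. In the second library, 680 sites (22.4%, 21.0% to 23.9%) were enriched under 2 times, 1412 between 2 and 5 times and 941 (31.0%) at least 5 times. Under 2 times lay 3.14% of regions at ratios of 1.5 to 2.5 and 1.01% of those at 0.8 to its reciprocal, and at least 5 times 72.7% and 90.1%. The rule holds these reads low at the sites, so the shares are a description. Groups cut by even-position reads differed in the held-out reads of the second library. Their pooled enrichment there was 2.94 (2.9 to 2.99) in regions of 10 to 14 even-position reads, 4.51 (4.44 to 4.58) at 15 to 29 and 6.74 (6.59 to 6.88) at 30 or more. At the 85 sites with a ratio of 10 or more the value was 1.14 (1.01 to 1.29), close to the level of their surroundings. That group was chosen for low reads in this very library. Regions chosen at 10 or more by even-position reads had an enrichment of 2.28 (2.17 to 2.40) in the odd-position reads of the second library.

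**Figure D3:**
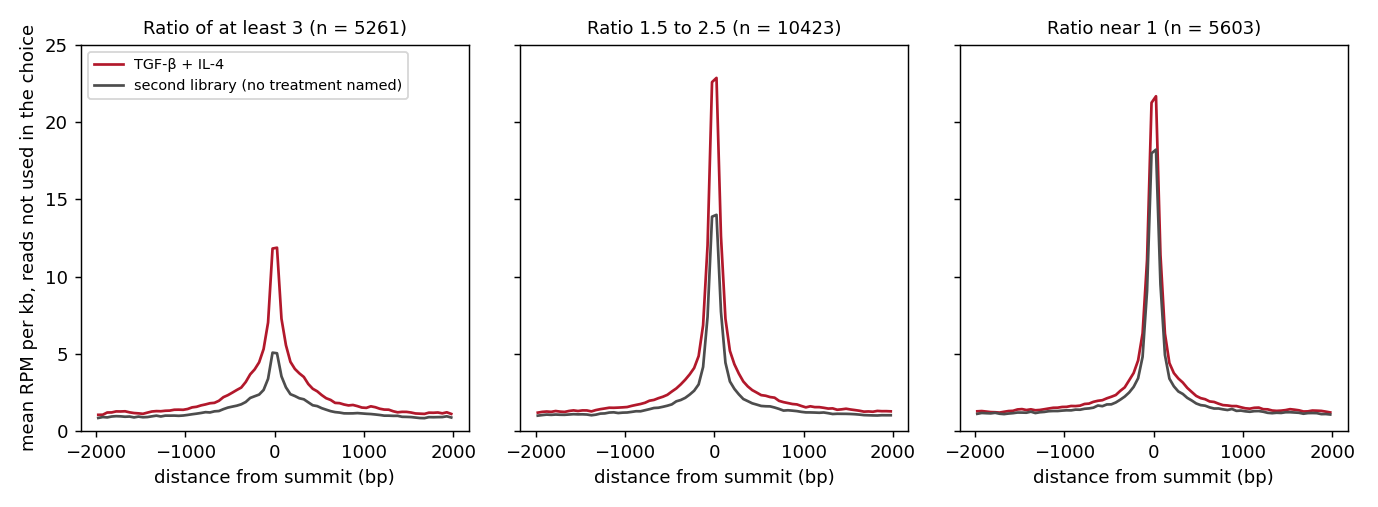
Mean RPM per kb against distance from the summit, in steps of 50 bp, in odd-position reads, for regions chosen by even-position reads at a ratio of at least 3, of 1.5 to 2.5 and near 1 (0.8 to its reciprocal). At the summits of the first class the TGF-β + IL-4 library reached 11.8 and the other 5.06, both lower than in the other 2 classes, where the TGF-β + IL-4 library reached 22.7 and 21.5.

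In the held-out summit profile, the 5261 regions chosen at a ratio of at least 3 were weaker than both comparison classes. Within 50 bp of the summit the held-out RPM per kb was 11.8 with TGF-β + IL-4 and 5.06 in the second library. Regions at a ratio of 0.8 to its reciprocal had 21.5 and 18.1, and those at 1.5 to 2.5 had 22.7 and 13.9. More than 1.5 kb away the levels of the first class were 1.18 and 0.91. The profile of the second library was centred at the same place, with 5.53 times its distant level at the summit. For the 3033 sites, in all reads, the TGF-β + IL-4 library was closer to the comparison classes. Its median RPM was 1.74 at the sites, 2.18 at ratios of 1.5 to 2.5 and 1.99 at 0.8 to its reciprocal. The median enrichment was 12.5, 13.7 and 12.5. These are reads that the rule itself used.

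In shape the sites were like other GATA3 regions in the TGF-β + IL-4 library, though reads around their summits were more spread out. The median distance between minus-strand and plus-strand 5′ ends within 250 bp of the summit was 109 bp, against 112 bp at ratios of 1.5 to 2.5 and 113 bp at 0.8 to its reciprocal in the same reads. Counting by fragment centre favours bins with such a distance, in all 3 classes. That distance lay between 60 and 200 bp at 81.2% of sites, and at 88.3% and 89.9% of the comparison regions. The width around the summit that held 50% of the reads within 500 bp was 198 bp at the median site, 159 bp at ratios of 1.5 to 2.5 and 138 bp at 0.8 to its reciprocal. That width takes in reads of the background and of neighbouring regions, and their part in the difference was not tested. In the second library the strand distance at the sites was 89.5 bp and the width 321 bp, with few reads per site behind them. Reads at the top mapping quality made up a median of 95.7% at the sites, and 96.2% and 96.0% in the comparison regions.

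The difference reached past the edges of the sites and faded over kilobases. Reads 200 to 1000 bp outside the sites played no part in the rule, and there the pooled ratio was 1.53 (1.52 to 1.54). It was 1.21 at 1 to 5 kb, 1.06 at 5 to 50 kb and 0.96 at 50 to 500 kb. Around regions at 1.5 to 2.5 the ratio at 200 to 1000 bp was 1.26 (1.26 to 1.27), and around those at 0.8 to its reciprocal it was 1.22 (1.22 to 1.23). Held-out reads gave 1.46 (1.45 to 1.47), 1.27 and 1.23. The flank ratio was above 1 only with scaling by total reads: with the median ratio of all bins set to 1 it was 0.92, and the scaling moves the comparison regions alike. The flank ratio was higher at the sites than at other regions, beyond counting error, at 200 to 1000 bp and at 1 to 5 kb. Held-out values at 1 to 5 kb were 1.16 (1.15 to 1.17), 1.05 (1.05 to 1.06) and 1.08 (1.07 to 1.08). Flanks of a comparison class leave out the regions of that class as well as the sites, while flanks of the sites keep the comparison regions. They thus hold different mixes of regions, and the part of this in the difference was not tested.

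**Figure D4:**
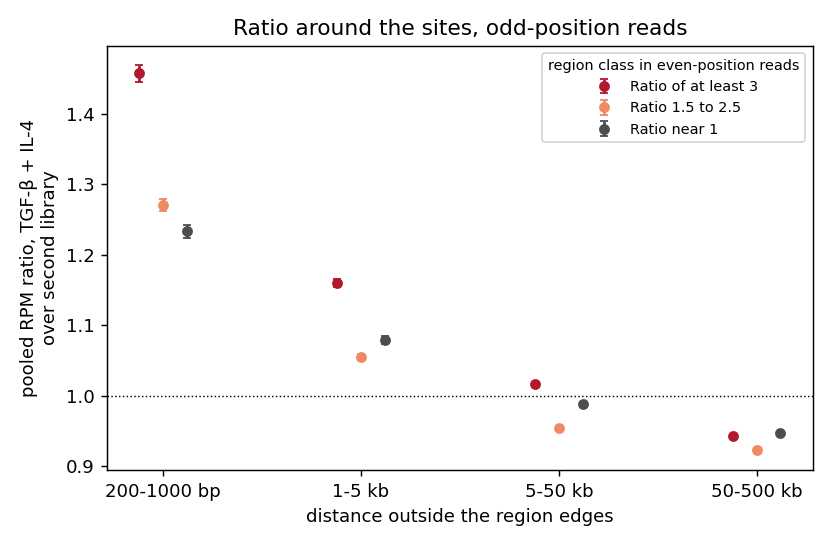
Pooled RPM ratio of the libraries in odd-position reads at 4 distances outside regions chosen by even-position reads, with 95% counting intervals that are mostly smaller than the points. Regions at a ratio of at least 3 have the highest value at 200 to 1000 bp (1.46) and at 1 to 5 kb (1.16), and at 50 to 500 kb all 3 classes lie between 0.92 and 0.95.

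The flank ratio was higher around sites with more reads in the TGF-β + IL-4 library. That library is also the upper part of the ratio, and these were not held-out reads. The comparison classes were not cut by read number, so the trend cannot be called particular to the sites. At 200 to 1000 bp the ratio was 1.51 (1.495 to 1.52) around sites of 20 to 29 reads, 1.55 (1.53 to 1.57) at 30 to 59 and 1.69 (1.66 to 1.73) at 60 or more. By the ratio of the site itself, flanks ran from 1.52 (1.503 to 1.53) at under 4 to 1.64 (1.60 to 1.68) at 6 to 10, and were 1.63 (1.54 to 1.72) at 10 or more. An adjacent bin of at least 20 reads was present at 35.1% of sites, nearly the share at the comparison regions (35% in both classes).

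The sites were spread over all autosomes. As a share of qualifying bins they ran from 8.0% on chromosome 7 (Wilson interval 6.76% to 9.44%) to 15.3% on chromosome 13 (13.6% to 17.2%). Chromosome 18 followed with 13.4% (11.4% to 15.7%) and chromosome 3 with 12.4%. Those 2 intervals overlapped that of chromosome 13, and chromosome 11, with 8.63%, was next to the lowest. On chromosome 13 the median ratio of all qualifying bins was 1.72 and on chromosome 7 it was 1.59, and the ratio of all reads of the chromosome was 1.02 and 0.94. The part of these values in the shares was not tested.

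**Figure D5:**
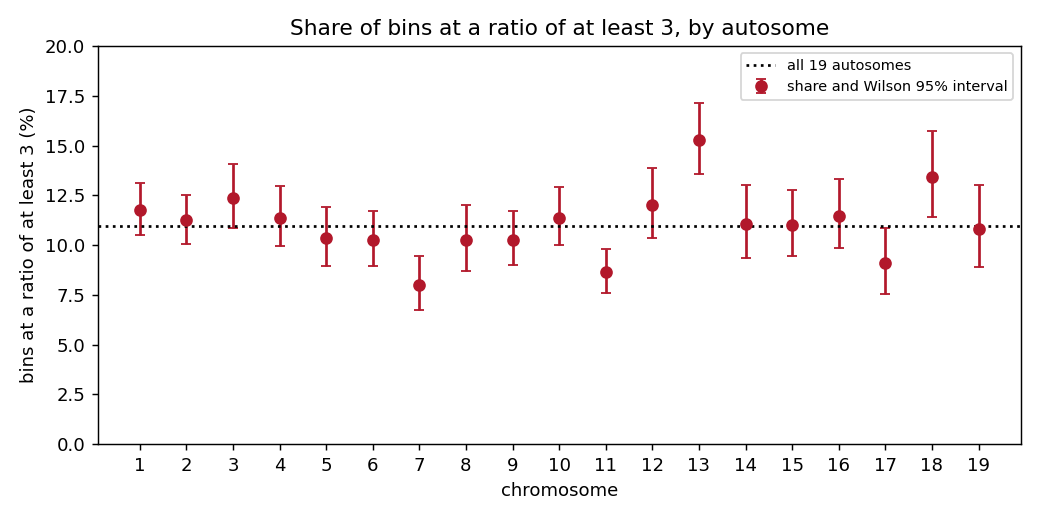
Share of qualifying 200-bp bins with a ratio of at least 3 on each autosome, with Wilson 95% intervals of counting error, and the share over all 19 (dotted). Chromosome 13 is highest at 15.3% and chromosome 7 lowest at 8.0%.

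The spacing of the sites was compared with that of all 21383 qualifying regions. Within 100 kb of another site lay 1655 (54.6%), within 10 kb 605 (19.9%) and within 1 kb 234 (7.72%). Over all regions, a set several times larger, the shares were 93.6%, 54.3% and 21.0%. For the 5343 regions at a ratio of 0.8 to its reciprocal they were 69.6%, 27.2% and 8.48% within their own class, and for the 10316 at 1.5 to 2.5 they were 83.1%, 40.3% and 16.6%. These shares rise with the size of the set and do not show that the sites cluster. A site had a median of 4 other qualifying bins within 50 kb, as had both comparison classes, and 390 sites (12.9%) had none. Of the 100-kb windows with any site, 1810 held 1, and 42 held 4 or more. Windows were not counted in this way for other regions.

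The window with the most sites, 9 in number, was chr12:36200001-36300000. In it 11 of 18 qualifying bins had a ratio of at least 3, against 11.0% of all qualifying bins. The window was picked for its number of sites, which by itself raises that share. Its sites held 421 reads with TGF-β + IL-4 and 110 in the second library, a ratio of 5.65 (4.57 to 7.03). The strongest, from 36299201 to 36299600, held 117 reads against 28 (6.17, 4.05 to 9.68), and the next, from 36254601 to 36255000, held 97 against 20 (7.16, 4.39 to 12.2). A site from 36260201 to 36260400 had 36 against 6, and the site with the smallest ratio, from 36238201 to 36238400, had 44 against 20. Outside the qualifying bins the reads of the window also had a raised ratio, 1.87 (1.71 to 2.03). In this window the raised read ratio was thus not limited to the sites, and its cause was not tested.

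The next windows by number of sites were on chr8:84000001-84100000 and on chr15:62600001-62700000, each with 7. The chromosome 8 sites held 297 reads against 110 (3.98, 3.19 to 5.01) and the reads of the window outside its 13 qualifying bins had a ratio of 1.68 (1.54 to 1.82). Of them, the site from 84096201 to 84096600 had the most reads, 80 against 37, and that from 84027001 to 84027200 held 35 against 6 (8.61, 3.58 to 25.04). On chromosome 15 the sites held 311 against 103 (4.46, 3.55 to 5.62) and the reads outside the 22 qualifying bins had 1.89 (1.73 to 2.06). Neighbouring sites there, from 62652201 to 62652600 and from 62653001 to 62653600, held 85 against 36 and 104 against 28.

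A raised surrounding did not go with every such window. On chr13:56600001-56700000, a window picked after its values were seen, 9 of 10 qualifying bins were members and the 6 sites held 416 reads against 101, a ratio of 6.08 (4.88 to 7.63). Reads outside the qualifying bins had a ratio of 0.98 (0.90 to 1.06) there. On chr18:89400001-89500000, picked in the same way, 8 of 9 bins were members and the outside ratio was 2.03 (1.82 to 2.27). Over all qualifying bins 11.0% were members, and the picking raises the shares in both windows.

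The sites with the most reads were enriched in both libraries. The largest, on chr14:67050601-67051000, held 217 reads (13.9 RPM) with TGF-β + IL-4 and 77 (3.35 RPM) in the second library, a ratio of 4.16 (3.19 to 5.47). It was enriched 30.2 times over its surroundings even in the second. On chr10:95460801-95461400 there were 203 reads against 79 (3.79, 2.91 to 4.98), and on chr1:181423001-181423600 there were 200 against 77 (3.83, 2.93 to 5.05). The chromosome 2 site from 48105001 to 48105600 had 199 against 79 (3.72, 2.85 to 4.89), with an enrichment of 85.6 and 34. Among the 10 strongest the largest ratios were 5.32 (3.89 to 7.41) on chr3:21872001-21872400, with 184 against 51, and 4.76 (3.52 to 6.53) on chr1:20730601-20731000, with 184 against 57. The single bin on chr12:55628601-55628800 held 178 reads, which filled 44.5% of the positions open to it, and the removal of duplicates limits such counts.

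The remaining strong sites were of the same kind. On chr16:56380801-56381200 there were 179 reads against 78 (3.39, 2.58 to 4.48), on chr7:121623401-121623800 there were 176 against 63 (4.12, 3.08 to 5.59), and on chr17:47341001-47341600 there were 173 against 60 (4.25, 3.15 to 5.81). The longest sites, 800 bp each, were on chr8:123590801-123591600, with 169 against 41 (6.08, 4.302 to 8.78), and on chr16:24164801-24165600, with 108 against 28 (5.69, 3.73 to 8.96). At both the enrichment in the second library was low for such read numbers, 2.03 and 2.19, and with TGF-β + IL-4 it was 13.9 and 8.0. A further long site on chr1:80478201-80478800 held 117 against 36.

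At the far end stood sites that were nearly empty in the second library. Ranked by the lower bound of the interval, the first was on chr3:59528401-59528600, with 39 reads against 1, a ratio of 57.6 (9.74 to 2331). A bin beside it also held at least 20 reads but did not pass the quality and strand rules. On chr3:137954801-137955000 there were 22 reads against 0, and the exact interval of the ratio starts at 8.08 and has no upper end. chr4:3487001-3487200 had 58 against 4 (21.4, 7.92 to 81.2) and chr9:81954001-81954200 had 57 against 4 (21.03, 7.78 to 79.8). These 2 had no other qualifying bin within 50 kb and a narrow shape, with 50% of reads inside 76 and 87 bp.

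The other sites of that ranking were less alike. On chr6:31109001-31109400 there were 60 reads against 5 (17.7, 7.18 to 56.5), at a place with 13 other qualifying bins within 50 kb and an adjacent bin of at least 20 reads. Sites on chr11:26303201-26303400, with 25 against 1, and on chr1:133702001-133702200, with 30 against 2, had strand distances of 125 and 102.5 bp. At the site on chr3:19234201-19234400, with 28 against 1, the strand distance was 15 bp, and on chr18:89402801-89403000, with 37 against 3, it was -93 bp, so that minus-strand reads lay before plus-strand reads. The chromosome 18 bin from 32318201 to 32318400, with 26 against 1, was enriched 4.48 times over its surroundings with TGF-β + IL-4, where the chromosome 4 site reached 58.0. A bin can thus pass the rule with a strand distance far from the fragment length. Picked as the extremes of 3033 sites in the same reads, these ratios are raised by the choice itself, which the intervals do not cover.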

How the data were processed

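GATA3 chromatin immunoprecipitation libraries of 2 conditions, 1 each, were used. Per the labels' protocols, chromatin was sonicated to 200 to 300 bp, amplified for 17 cycles and cut at about 220 bp. CASAVA 1.0, Bowtie2 and mm9 are named per the submitters' processing notes, with no settings given. The authors deposited 1 line per aligned read of 25 bases, filtered on mapping quality and freed of duplicates per the file names; 0 reads shared a position and strand. The deposited score per read, its mapping quality, ran from 11 to 42. No control library and no peak list was used here.

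Counting covered chromosomes 1 to 19, X and Y, with each 5′ end moved 63 bp inwards, and used pandas 2.3.3, scipy 1.17.1 and numpy 2.4.6 under Python 3.11.15. Figures were drawn with matplotlib 3.10.9. Ratios of RPM carry exact Clopper-Pearson intervals of the split of reads, enrichments exact Poisson intervals and shares Wilson intervals. Comparison regions passed the same read, quality and strand rules at ratios of 0.8 to its reciprocal and 1.5 to 2.5. Flanks leave out all sites and the regions of the class itself. Even and odd positions refer to the 5′ base counted from 0. The rule was run on a simulated chromosome, and the interval of the ratio was checked for fixed counts against an exact binomial interval. The simulation was simpler than these data. Its background was uniform and all its reads had the top mapping quality, so it could not try the quality rule.

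Regions named are the 10 sites with most reads, the 10 with the highest lower bound, 5 of the longest (ties taken by position), the 5 with most reads in the second library, those of the 3 fullest 100-kb windows, and the 3 nearest to a ratio of 3 on either side among bins of at least 40 reads. The members, comparison classes and alternatives were chosen with earlier results of these data known. The gene and promoter tables at hand are of GRCm38 and positions were not converted between builds, so gene names, sequences and motif searches are not used here.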

Additional observations from a re-analysis of the deposited data

Results flagged for a closer look

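The rule covers chromosomes 1 to 19, and bins with a ratio of at least 3 also lay outside it. On the X chromosome 84 of 401 qualifying bins (20.9%, Wilson interval 17.2% to 25.2%) had a ratio of at least 3. In 98 X regions chosen by even-position reads the odd-position reads gave a ratio of 2.78 (2.54 to 3.06), against 1.65 (1.60 to 1.70) over all 333 X regions. The ratio of all X reads between the libraries was 1.13. Among bins that missed only the mapping quality rule, 144 of 1638 (8.79%, 7.51% to 10.3%) had a ratio of at least 3. Chosen in the same way, 269 such regions had a held-out ratio of 2.24 (2.12 to 2.37), against 1.36 (1.34 to 1.38) over all 1705.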

How the results depend on the processing

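The number of sites depended on the thresholds: 8362 at a ratio of at least 2, 1418 at 4, 5972 with at least 15 reads and 1199 with at least 30. Setting the median ratio of all bins to 1 left 763. It stayed within 1.5 times of 3033 when bins began 100 bp later (3066), reads were moved 100 bp (2751), the floor was 3 reads (3033), the quality rule was dropped (3155) or the strand rule was 30% to 70% (2831). The places changed more than the number, since 52.4% of the sites overlapped one from the bins that began 100 bp later, and 65.2% one from reads moved 100 bp. The pooled ratio of 4.01 became 3.73 with reads moved 100 bp, 3.98 with top-quality reads, 2.43 with the median of bins at 1, and 2.40 in odd-position reads. The reverse choice, added after seeing the data, gave 2.41 in even-position reads. The ratio at 200 to 1000 bp was 1.37 around sites chosen at 2, 1.61 at 4, 1.46 in held-out reads and, on the other side of 1, 0.92 with the median of bins at 1. Enrichment in the second library was 3.99 against a background 5 to 50 kb away and 3.88 in held-out reads. The share of sites near another was 41.8% within 50 kb, and within 100 kb 79.3% for sites chosen at 2 and 36.3% at 4, sets of other sizes. The cause of these shifts was not tested, beyond the set sizes and scalings that the alternatives themselves change. No paired analysis was possible because each condition has 1 library. Counting error limits what a single site can show, since the lower bound of its ratio went down to 1.397 and had a median of 1.91.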

Other observations

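Of the autosomal bins that missed only the strand rule, 104 of 347 (29.97%, Wilson interval 25.4% to 34.99%) had a ratio of at least 3. On the Y chromosome 1 bin qualified and 0 reached the ratio.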
